A study of Mus musculus with 2 samples.

Results

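The collagen family was taken as every gene of the count tables whose symbol is Col, a chain number, the letter a and a second number, which gave 44 of 55357 genes. The name alone decided which genes belong, but the family was taken up with earlier results of these data known. Their UMIs (unique molecular identifiers, each marking 1 captured RNA molecule) were followed in CD45+ 7-AAD- sorted cells of MC38 tumours, a mouse colorectal carcinoma model. The tumours were digested with collagenase IV and DNase I, and the sorted cells were run on the 10x 3' v3 droplet assay. There was 1 library per genotype: SPP1fl/fl, a floxed control without Cre, and SPP1fl/fl-Lyz2-icre, in which Cre driven by Lyz2 is active in myeloid cells. Both therefore carry the floxed Spp1 alleles, and the labels used here give neither age nor the number of mice or tumours behind a library. The CD45 gate is meant to hold leukocytes, so fibroblasts, the usual source of collagen in tumours, lie outside it by design.

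Collagens are trimers of chains that wind around each other, which requires a small glycine that recurs along each chain in a repeating triplet. Fibrillar collagens (types I, II, III, V, XI, XXIV and XXVII) form the banded fibrils of connective tissue, fibril-associated collagens sit on their surface, type IV builds the basement membrane, and type VI builds beaded filaments in between. In tumours, most of this matrix is laid down by fibroblasts, while macrophages and other leukocytes bind, take up and degrade it.

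The shared repeat is shown for 6 members on which the results turn: Col3a1 and Col1a1 as fibrillar chains, Col6a1 as the beaded filament chain, and Col14a1, Col15a1 and Col27a1 as members with UMIs in leukocytes. Each stretch is an exon of exactly 54 coding bases, 6 triplets of codons that each open with a glycine codon (GGN, where N is any base, in capitals, read in frame on the coding strand). Positions are GRCm38 (mm10) with GENCODE vM21 transcripts, and each sequence is written 5′ to 3′ on the strand of the gene.
Col3a1, exon 6, chr1:45325360-45325413, plus strand: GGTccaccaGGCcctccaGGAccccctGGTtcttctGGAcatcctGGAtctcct
Col1a1, exon 8, chr11:94939904-94939957, plus strand: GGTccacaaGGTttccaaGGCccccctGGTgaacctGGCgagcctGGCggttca
Col6a1, exon 9, chr10:76719623-76719676, minus strand: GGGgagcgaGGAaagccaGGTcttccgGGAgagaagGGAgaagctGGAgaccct
Col14a1, exon 37, chr15:55467960-55468013, plus strand: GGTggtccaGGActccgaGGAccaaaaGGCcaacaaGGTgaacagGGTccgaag
Col15a1, exon 25, chr4:47292320-47292373, plus strand: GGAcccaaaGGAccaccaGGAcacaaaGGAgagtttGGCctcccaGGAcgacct
Col27a1, exon 4, chr4:63231792-63231845, plus strand: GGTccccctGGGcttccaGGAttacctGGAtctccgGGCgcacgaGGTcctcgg
Of the 44 members, 40 had at least 1 exon of 54 coding bases and 39 had one made of 6 such triplets. The unbroken run of glycine triplets was 344 long in Col3a1 and 338 in Col1a1, against 217 in Col27a1, 87 in Col6a1, 32 in Col14a1 and 30 in Col15a1. The fibrillar chains are thus mostly repeat (73.2% of the codons of Col3a1 lay in runs of 6 or more triplets), whereas in Col14a1 that share was 14.0%.

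The control library held 9154 barcodes and the Lyz2-icre library 13944, of which 8724 and 13915 were kept, with a median of 9379.5 and 6374 UMIs per cell and 88047097 and 98256831 UMIs in all. The libraries shared 43 barcode sequences. Levels are given as CPM, the UMIs of a gene in each 1000000 UMIs of the class of cells. Spp1, the floxed gene, had 632 CPM in macrophage-like cells of the control (32176 UMIs) and 1.57 in those of the Lyz2-icre library (102 UMIs). Whether the counted 3' tag lies in the deleted part is not given in the labels. Intervals below are exact and at the 95% level, and cover counting error only. With 1 library per genotype, no difference between genotypes has a replicate check and none was tested.

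Collagen-high cells were those in which Col3a1 made up 0.2% or more of the UMIs, 180 in the control (median 13205 UMIs) and 306 in the Lyz2-icre library (median 7624). Of these, 176 and 255 fell in 1 cluster led by Col3a1, Sparc and Dcn, although collagen genes were not used for the clustering. The other 4 and 51 had a median of 1972 and 1029 UMIs, and 38 of the 51 lay in a shallow unnamed cluster. A share of the gated cells also carried macrophage RNA: C1q transcripts made up 0.1% or more of the UMIs in 25% and 43.1% of them. At the lower depth of the Lyz2-icre library, fewer Col3a1 UMIs were enough to pass the gate. Cells just inside it (0.2 to 0.25%) numbered 13 and 32 and had a median of 17 and 4.5 Col3a1 UMIs, while cells just outside (0.15 to 0.2%) numbered 21 and 70 with 11 and 3. On either side of the gate Col6a1, which the gate does not use, was high, at 765 and 502 CPM inside and 609 and 532 outside.

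Several fibroblast markers were high in these cells, and leukocyte markers were present with them. Of 8 fibroblast markers, 6 in the control and 7 in the Lyz2-icre library reached 10 CPM, none was at 0, and their sum was 1956 and 1835, against 3.24 and 3.89 in macrophage-like cells. Dcn, the small proteoglycan decorin that binds collagen fibrils, held most of that sum (1664 and 1534). Pdgfrb stood at 104 and 93.4 and Pdgfra at 66.7 and 49.4, but Fap, the fibroblast activation protease, reached 2.95 and 2.68. Part of this count came from the few gated cells rich in Col1a1, described below. In the 167 and 295 gated cells with Col1a1 under 0.2%, Mfap5 had 0 and 1 UMI and Fap stood at 2.37 and 0.792. Thy1 stood at 9.87 and 11.9 there and Lum at 3.95 and 17.8. Dcn (1641 and 1515), Pdgfrb (103 and 85.9), Pdgfra (62.8 and 45.9) and Postn (45.0 and 23.4) stayed above 10. All 8 macrophage markers and all 5 pan-leukocyte markers were also present, summing to 3789 and 5387 and to 1089 and 1547. These sums lay below those of macrophage-like cells (26741 and 25516.5, and 5248 and 5808). They also lay below those of other leukocytes (10155 and 11795.5, and 6174 and 6788). Whether these UMIs are the gated cells' own or come from other cells was not tested. Of 6 epithelial or tumour markers, 1 and 0 reached 10 (sums 15.8 and 12.3, with Krt8, Krt18 and Cldn4 at 0 in both). None of 5 endothelial markers did (sums 7.73 and 4.21), and 1 of 6 pericyte or muscle markers did (sums 84.0 and 78.5, with Myh11 at 0 in both). Among gated cells with 5000 or more UMIs, 67.9% and 64.5% had neither a Xist nor a Y-linked UMI, against 6.46% and 12.7% of macrophage-like cells. Whether the gated cells come from the host or from the tumour line was not tested.

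Collagen RNA was 1.54% of all UMIs in collagen-high cells of the control (41893 collagen UMIs) and 1.43% in those of the Lyz2-icre library (37344). The CPM scale counts each captured molecule once, and members are set side by side here without a length correction. Whether introns were counted is not given, and an effect of gene length on these levels was not tested. On this scale 17 of 44 members reached 10 in both libraries and 18 in at least 1. Another 15 had UMIs but stayed under 10, and 11 had none in these cells. The fibrillar members held 82.7% and 82.4% of the collagen UMIs and the beaded filament members 13.7% and 14.0%. Every other role held under 2%: basement membrane 1.34% and 1.31%, fibril-associated 1.25% and 1.24%, network 0.423% and 0.503%, multiplexin 0.380% and 0.327%, anchoring fibril 0.196% and 0.209%.

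**Figure D1:**
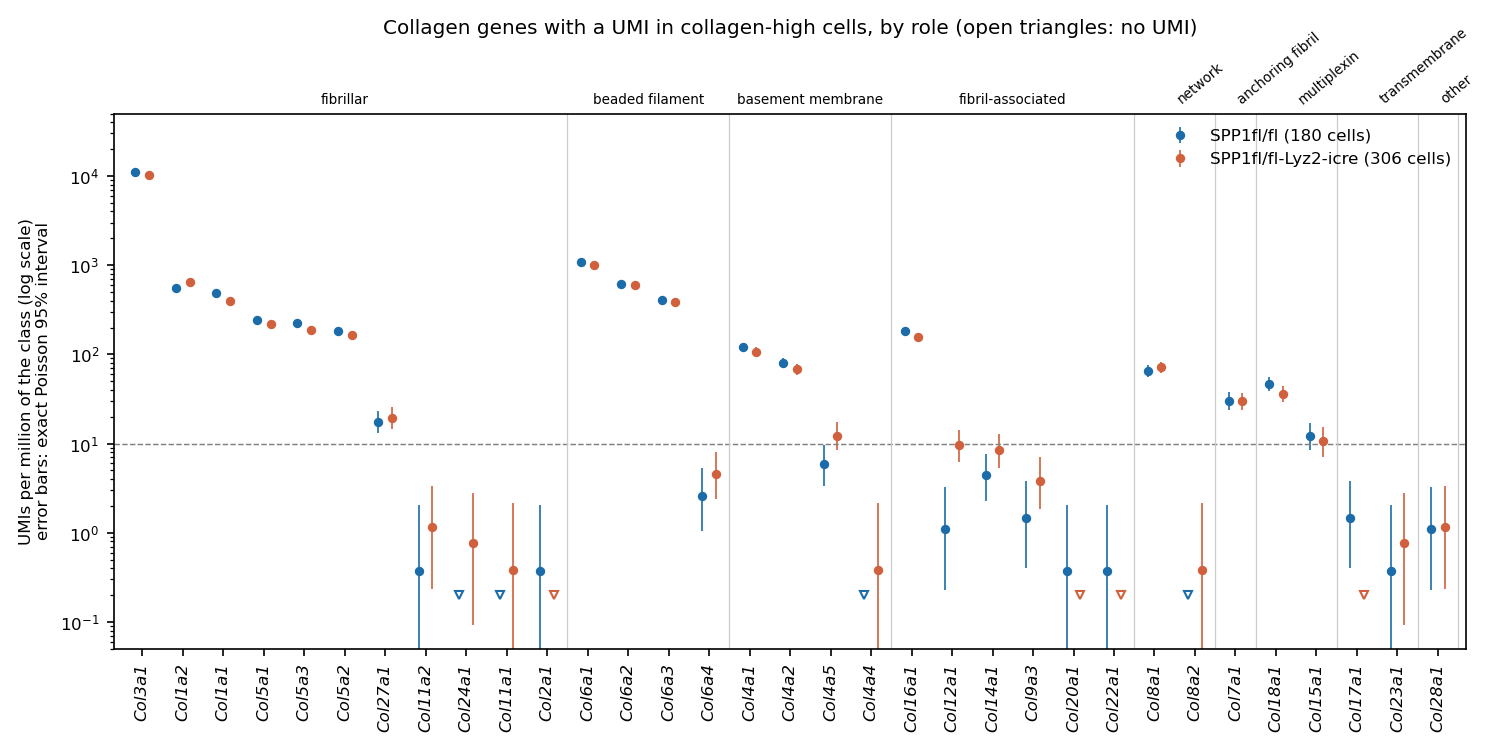
CPM (log axis) of each collagen gene with at least 1 UMI in collagen-high cells, grouped by role, for the control (180 cells) and Lyz2-icre (306 cells) libraries. Bars are exact Poisson 95% intervals, open triangles mark no UMI, and the dashed line is at 10. Col3a1 stands near 10000 and the pairs of points lie close together for the abundant members.

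Among the fibrillar chains Col3a1, the single chain of type III collagen, was by far the most abundant, at 11038 (29972 UMIs) and 10134 (26466 UMIs). The gate selects for Col3a1, so its level here is a description. It alone made up 71.5% and 70.9% of the collagen UMIs. The chains of type I collagen, the main fibril protein of most connective tissue, were far lower. Col1a2 stood at 553 and 656 (1502 and 1712 UMIs) and Col1a1 at 492 and 401 (1336 and 1048 UMIs). Type V chains, which help start fibrils, followed, with Col5a1 at 242 and 217, Col5a3 at 228 and 186, and Col5a2 at 185 and 165. Col27a1, a fibrillar chain known from cartilage, reached 17.7 and 19.5. The cartilage fibrillar genes Col2a1, Col11a1 and Col11a2 and the rare Col24a1 had between 0 and 3 UMIs in each library.

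The beaded filament chains were the second block. Col6a1 stood at 1095 and 1011 (2973 and 2641 UMIs), Col6a2 at 616 and 605, and Col6a3 at 402 and 382, and these are the 3 chains of the classical type VI trimer. Col6a1 and Col6a2 stood above Col1a1. The alternative chain Col6a4 had 7 and 12 UMIs, and Col6a5 and Col6a6 had none in any kept cell. Among gated cells with 5000 or more UMIs (162 and 217), Col6a1 and Col6a2 went up and down together from cell to cell, with Spearman's rho of 0.69 and 0.63. Col3a1 went with Dcn at 0.70 and 0.71 and with Col5a1 at 0.62 and 0.49. These are descriptions across cells that share a library and differ in depth, and Col3a1 was the gated gene.

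Type IV, of the basement membrane, was present mainly as its common pair. Col4a1 stood at 121 and 107 and Col4a2 at 79.9 and 67.8, and these genes start 21 bases apart on opposite strands of chromosome 8. The other type IV pairs are arranged likewise, with starts 72 bases apart for Col4a3 and Col4a4 and 1309 for Col4a5 and Col4a6. In these cells 1 gene of each of these pairs had UMIs: Col4a5 had 16 and 32 UMIs while Col4a6 had none, and Col4a4 had 0 and 1 while Col4a3 had none. Whether the counting used strand, which decides how overlapping genes such as Col4a1 and Col4a2 share reads, is not given in the sources used here.

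Of the fibril-associated members, Col16a1 led at 185 and 155. Col12a1 (3 and 25 UMIs), Col14a1 (12 and 22) and Col9a3 (4 and 10) stayed under 10 CPM, Col20a1 and Col22a1 had 1 UMI each, both in the control, and Col9a1, Col9a2 and Col19a1 had none. Col8a1, a short-chain network collagen of vessel walls, reached 65.2 and 71.6, against 0 and 1 UMI for its partner Col8a2. Col7a1, the anchoring fibril of skin, stood at 30.2 and 29.9. The multiplexins, which carry long interrupted repeats and release fragments such as endostatin, were split between Col18a1 at 46.4 and 36.0 and Col15a1 at 12.2 and 10.7. Transmembrane members were nearly absent, with Col17a1 at 4 and 0 UMIs, Col23a1 at 1 and 2, and Col13a1 and Col25a1 at none. Col28a1 had 3 UMIs in each library, and Col10a1 and Col26a1 had none.

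Col1a1 was spread unevenly over the collagen-high cells. It had a UMI in 58.3% of the gated cells of the control and 35.0% of those of the Lyz2-icre library, whereas the same UMIs spread by depth alone would have reached 96.4% and 82.6%. The 10 cells richest in Col1a1 held 36.9% and 50.8% of its UMIs, against 19.3% and 30.0% for the 10 richest in Col1a2, neither of which the gate uses. Col1a2 reached 93.3% and 79.1% of cells, near the 96.9% and 88.8% that an even spread gives. The median cell therefore had 480 CPM of Col1a2 but 96.4 of Col1a1 in the control.

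**Figure D2:**
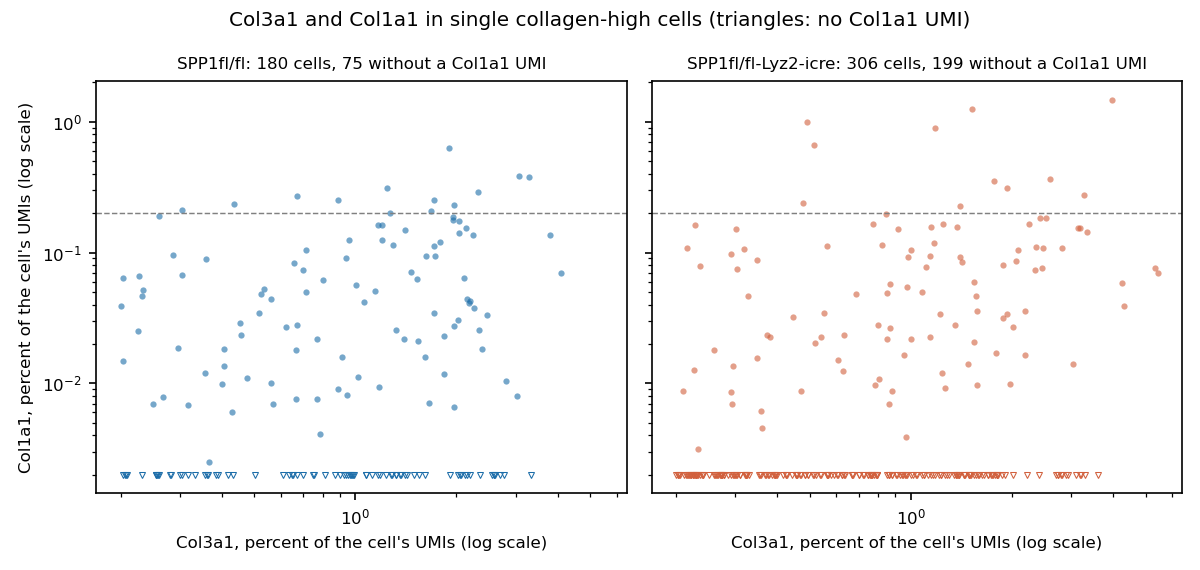
Col3a1 (horizontal, log axis) against Col1a1 (vertical, log axis) as percent of each collagen-high cell's UMIs, 1 point per cell and 1 panel per library; triangles at the bottom are cells without a Col1a1 UMI. A few cells lie above the dashed line at 0.2% Col1a1, and many cells with high Col3a1 have no Col1a1 UMI.

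The cells above 0.2% Col1a1, a limit set after these values were seen, were 13 of 180 and 11 of 306. They held 39.7% and 47.7% of the Col1a1 UMIs, which the limit itself favours. Of all UMIs of the collagen-high cells they held 182163 of 2715437 in the control and 85788 of 2611492 in the Lyz2-icre library. Beside that share, several members that the limit does not use were concentrated there as well. All 3 and all 25 Col12a1 UMIs lay in these cells, as did 29 of 33 and 24 of 28 Col15a1 UMIs and, in the Lyz2-icre library, 13 of 22 Col14a1 UMIs (1 of 12 in the control). Col12a1 and Col14a1 are the collagens that coat type I fibrils, and Col15a1 links fibrils to the basement membrane. Col1a2 stood at 1328 and 5572 CPM in these cells and at 497 and 489 in the rest. Col5a2 stood at 472 and 1189 against 164 and 130. The fibroblast genes Postn (periostin, 489 and 1853 against 45.0 and 23.4) and Mfap5 (66 of 66 and 54 of 55 UMIs) were found with them. Mki67, a marker of dividing cells, had no UMI in these cells, where a floor of 3 counts is 16.5 and 35.0 CPM and the exact upper limits are 20.3 and 43.0 CPM, while the rest had 89.2 and 74.4. Their Col3a1 was 16776 and 18068 against 10625 and 9865.

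Between the genotypes the collagen totals of collagen-high cells were close. The gate uses Col3a1, which made up 71.5% and 70.9% of the collagen UMIs, so the total is largely the gated value. The total was 15428 CPM (15280 to 15576) in the control and 14299.9 (14155 to 14446) in the Lyz2-icre library, a ratio of 0.927 (0.914 to 0.940). That ratio went to 1.02 without cells in which C1q made up 0.1% or more, and to 1.02 with a gate at 0.5%, so its direction depends on which cells are counted. Of the 18 members at 10 or more in a library, 1 was higher by 1.5-fold or more with an interval clear of 1 and 0 were lower, where 3.49% of the 9522 genes tested the same way were higher and 3.56% lower. The median log2 ratio of the 18 members was -0.12 (range -0.33 to 0.66), against -0.04 over all genes. These log2 ratios carry a pseudocount of 5 CPM.

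The member past that limit was Col4a5, an X-linked basement membrane chain. It had 16 UMIs in 15 cells of the control (5.89 CPM) and 32 UMIs in 27 cells of the Lyz2-icre library (12.3), a ratio of 2.08 (1.11 to 4.06). It was no longer past the limit when cells with C1q at 0.1% or more were left out, and no member then was. Among the more abundant members, Col3a1 had a ratio of 0.918 (0.903 to 0.934), Col1a2 of 1.19 (1.11 to 1.27), Col1a1 of 0.816 (0.752 to 0.885), Col5a3 of 0.819 (0.726 to 0.924), Col16a1 of 0.841 (0.736 to 0.960) and Col6a1 of 0.924 (0.876 to 0.974). Col6a2 (0.981), Col6a3 (0.9503), Col4a1 (0.888), Col4a2 (0.848), Col5a1 (0.896), Col5a2 (0.895), Col7a1 (0.989), Col8a1 (1.10), Col15a1 (0.882), Col18a1 (0.776) and Col27a1 (1.10) had intervals that held 1. In the few cells with Y-linked and no Xist UMIs (11 and 17), 8 members passed the limit, and Col3a1 (ratio 1.17) and Col1a2 (0.510) ran the other way. In cells with Xist and no Y-linked UMIs (40 and 100), 3 members passed it. There Col1a2 had a ratio of 1.80, Col3a1 of 0.713, and Col1a1 ran the other way (1.09). The share of all genes past the limit was not counted in either subset. Neither count can therefore be read as particular to the collagen members. Col12a1, under 10 CPM in both libraries and so not among the 18, had a ratio of 8.67 (2.64 to 44.8), from 3 UMIs in 2 cells and 25 in 4.

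Genes that make, hold and bind collagen were counted in the same cells from lists of 32, 18 and 12 genes, again beside 3.49% of all genes higher and 3.56% lower. Of the synthesis list 25 were tested, with 1 higher (P4ha2, a subunit of the prolyl hydroxylase that stabilises the triple helix, 29.5 and 50.6) and 1 lower (Pcolce2, an enhancer of procollagen cleavage, 18.4 and 8.42). P4hb, the other subunit of that enzyme, had a log2 ratio of 0.14, and the lowest were Loxl2, a crosslinking oxidase (-0.44), and Fkbp14, a folding enzyme (-0.39). Of the matrix list 15 were tested, with Tnc (tenascin-C, 4.42 and 30.3) and Lum (lumican, 7.73 and 29.5) higher and Lamb1, a laminin chain (141 and 93.4), lower; Fbln2, fibulin-2, was next lowest at -0.24. Of the 77 Lum UMIs of the Lyz2-icre library, 32 lay in the 11 cells above 0.2% Col1a1. Of the receptor and uptake list 7 were tested, with 3 higher: Lair1, an inhibitory collagen receptor of leukocytes (30.6 and 50.9), Mrc1, the macrophage mannose receptor (71.8 and 112), and Itga1, an integrin chain (9.94 and 18.4). Lair1 (216 and 246) and Mrc1 (536 and 546) stood higher in macrophage-like cells than in collagen-high cells, and the summed C1q level of the gated cells was 1897 and 2794. The part of macrophage RNA in these differences was not tested. The lowest of the receptor list were Ddr1, a collagen-binding kinase (25.04 and 17.2), and Mrc2, the uptake receptor of fibroblasts (129 and 94.6). The list medians were -0.07, -0.12 and -0.12.

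Set against macrophage-like cells, most genes of the synthesis and matrix lists were higher in collagen-high cells. Of 25 synthesis genes at 10 or more in either class, 18 were 3-fold or more higher in collagen-high cells of both libraries, as were 14 of 15 matrix genes and 3 of 8 receptor genes. Over all genes that share was 14%. In the other direction, 2 of 8 receptor genes (Lair1 and Mrc1) and none of the synthesis or matrix genes were 3-fold or more higher in macrophage-like cells of both libraries, against 5.3% of all genes. Serpinh1, the collagen chaperone HSP47, stood at 681 and 572 against 1.35 and 1.52. Mrc2 stood at 129 and 94.6 against 0.118 and 0.185, and Ddr2, a receptor for fibrillar collagen, at 161 and 122 against 0.510 and 0.461. The matrix gene that did not pass was Fn1, fibronectin, at 766 and 684 against 1017 and 1204. Since the gate and the clusters were made from these cells, the counts describe the classes and test nothing.

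Leukocytes carried collagen UMIs at far lower levels. The collagen total was 51.7 CPM (49.8 to 53.7) and 38.7 (37.2 to 40.2) in 4656 and 8369 macrophage-like cells, and 32.3 (30.4 to 34.4) and 36.5 (34.3 to 38.8) in 3788 and 5022 other leukocytes. Droplets hold free RNA from broken cells, so such low levels are set beside the collagen-high profile. The 100 and 218 cells of the Col3a1, Sparc and Dcn cluster that lay below the gate stood in between, at 2337 and 2148. Their fibroblast markers summed to 135 and 144, and Col3a1 made up 31.4% and 31.9% of their collagen UMIs in place of 71.5% and 70.9%. The gate splits these cells from the collagen-high cells by Col3a1 itself. It therefore favours a lower Col3a1 share and a lower collagen total below the gate, and both values are descriptions.

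**Figure D3:**
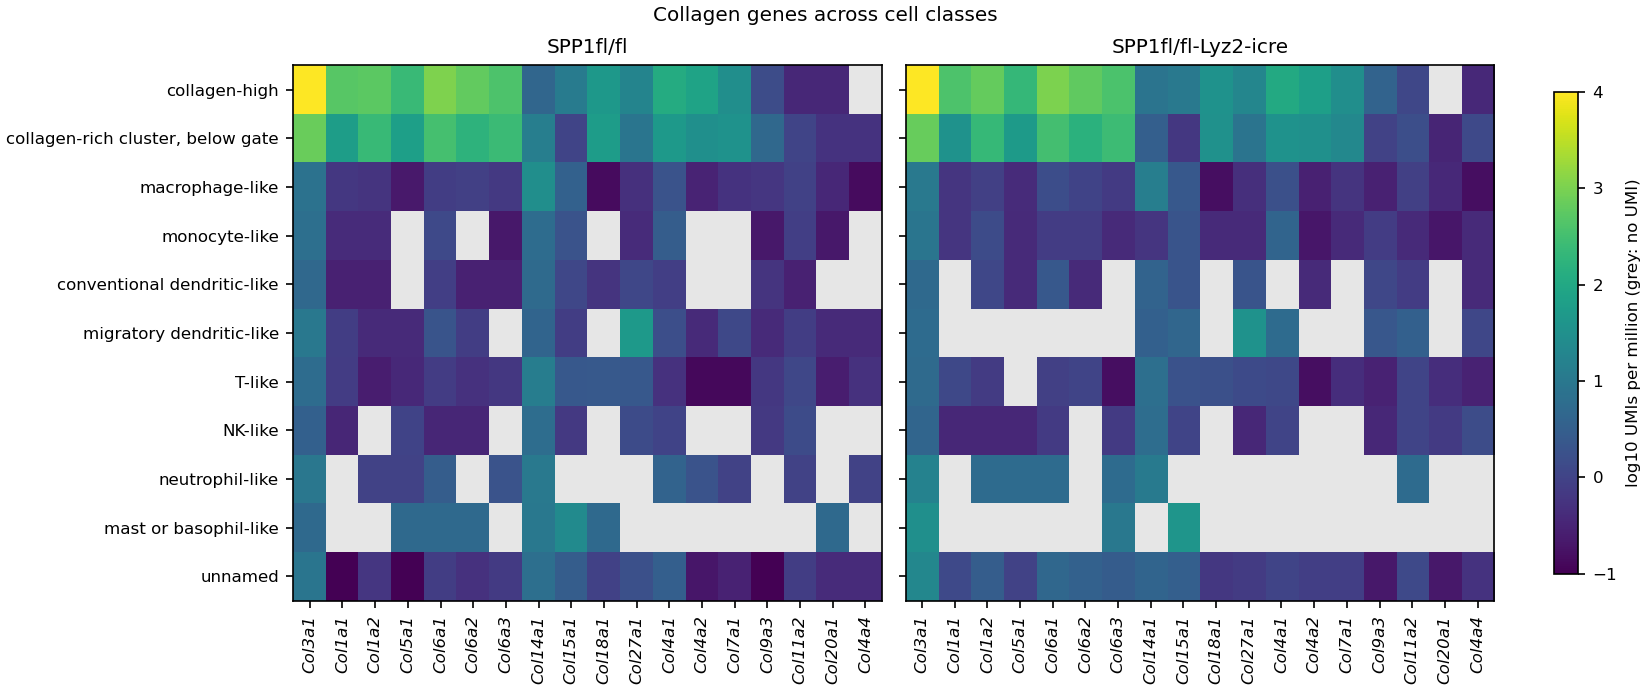
Levels of 18 collagen genes (columns) in each cell class (rows), as log10 CPM, for each library; grey marks no UMI. The collagen-high row is brightest for Col3a1 and for the type I, V and VI chains, whereas Col14a1 is brightest in macrophage-like cells and Col27a1 in migratory dendritic-like cells.

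Col3a1 was at a similar low level in most leukocyte classes. It had a UMI in 7.20% and 6.19% of macrophage-like cells and 5.33% and 5.16% of other leukocytes (median depth 10206, 7183, 7668.5 and 4613 UMIs). After each cell was thinned to 2000 UMIs, which left out 146, 555, 454 and 1100 shallower cells, the shares were 1.69%, 2.58%, 1.38% and 1.75%. Natural killer-like cells had 3.04% and 2.87% before thinning. Over the 20 leukocyte clusters of 50 or more cells, its median level was 6.75 and 6.28 CPM. The highest was 28.0 in the control, in a cycling macrophage-like cluster led by Ccnb2 (49.995 in the Lyz2-icre library), and 52.3 in the Lyz2-icre library, in the shallow unnamed cluster (27.5 in the control). A cluster of 25 cells found only in the Lyz2-icre library and led by Csf3, Mmp13 and Slpi stood at 451.

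For each member the UMIs per Col1a1 or Col1a2 UMI were compared with the same ratio in collagen-high cells. Were free RNA from those cells the sole source and its makeup the same, the fold would be near 1; this was not measured in empty droplets. A member was called in excess at 3-fold or more, an interval above 1 and 10 or more UMIs in both libraries. In macrophage-like cells 9 of 16 members with enough UMIs were in excess. Over all genes 99.5% were, since the scale is set by Col1a1 and Col1a2, which few other genes follow. The share therefore says nothing of the members. The members not in excess were Col3a1 (0.60 and 0.76), Col6a1 (0.63 and 1.08), Col6a2 (1.23 and 1.20), Col6a3 (1.43 and 1.35), Col5a1 (0.77 and 1.37), Col5a2 (1.10 and 0.80) and Col16a1 (0.91 and 2.12). These members, among them the most abundant chains of the collagen-high cells, ranged from 0.60 to 2.12 of the collagen-high profile in macrophage-like cells. They were picked by falling short of the 3-fold call, which bounds that range from above. Their source there was not tested.

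**Figure D4:**
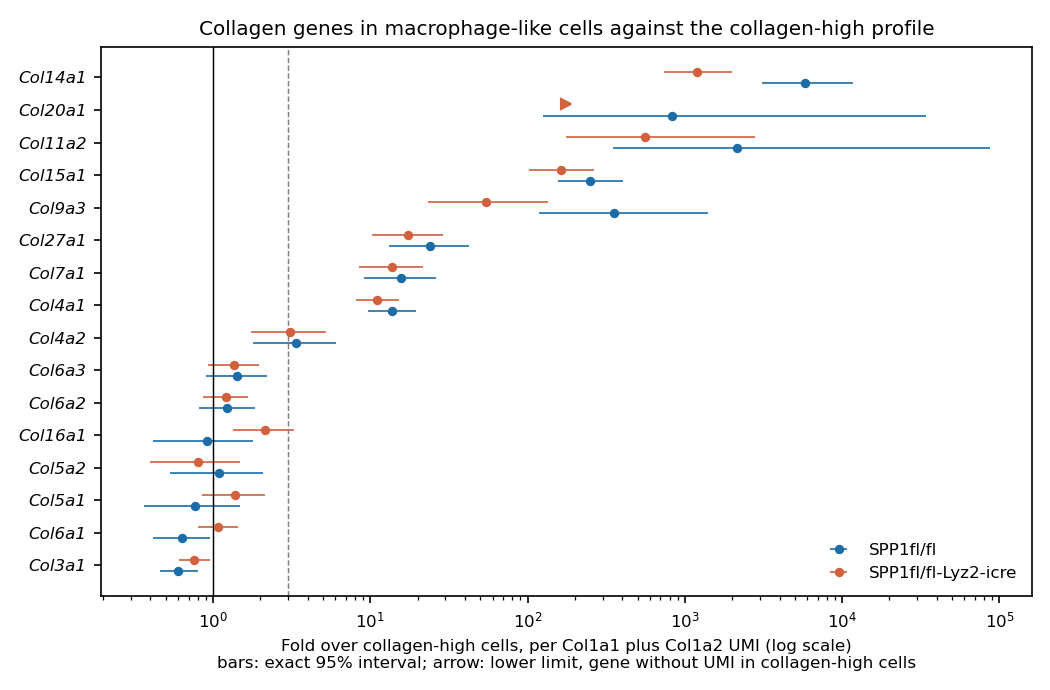
Fold of each collagen gene in macrophage-like cells over collagen-high cells, per Col1a1 plus Col1a2 UMI (log axis), in both libraries, with exact 95% intervals; the solid line is 1 and the dashed line 3, and the arrow marks a lower limit. The fibrillar chains Col3a1, Col5a1 and Col5a2 and the type VI chains Col6a1, Col6a2 and Col6a3 lie near 1. The fibrillar chains Col27a1 and Col11a2 lie above the dashed line, and Col14a1 lies above 1000.

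Col14a1 had the most UMIs of the members in macrophage-like cells. This fibril-associated chain had 1529 and 913 UMIs there, or 30.0 (28.5 to 31.6) and 14.0 (13.1 to 14.99) CPM, which was above its level in collagen-high cells (4.42 and 8.42). It made up 58.0% and 36.3% of the collagen UMIs of macrophages, and its excess was 5832-fold (3077 to 11784) and 1193-fold (736 to 1990). It had a UMI in 21.3% and 8.71% of macrophage-like cells (5.80% and 2.73% after thinning), against 3.14% and 0.298% of monocyte-like cells (0.715% and 0.0601%), with median depths of 10206 and 7183 against 7814 and 4490.5.

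Within macrophages Col14a1 was uneven. The cluster led by Fcrls, Gas6 and Cbr2 had the most in both libraries, 59.4 and 39.0 CPM, in 33.4% and 18.8% of its cells. The cluster led by Dnase1l3, Ccl8 and Apoe had 30.4 and 19.3, a cycling cluster led by H1f5, Prc1 and Top2a 32.2 and 15.95, and one led by Sgk1 13.7 and 3.42. The Fcrls cluster had a median of 8485 and 6042 UMIs per cell, below the 10206 and 7183 of all macrophage-like cells.

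**Figure D5:**
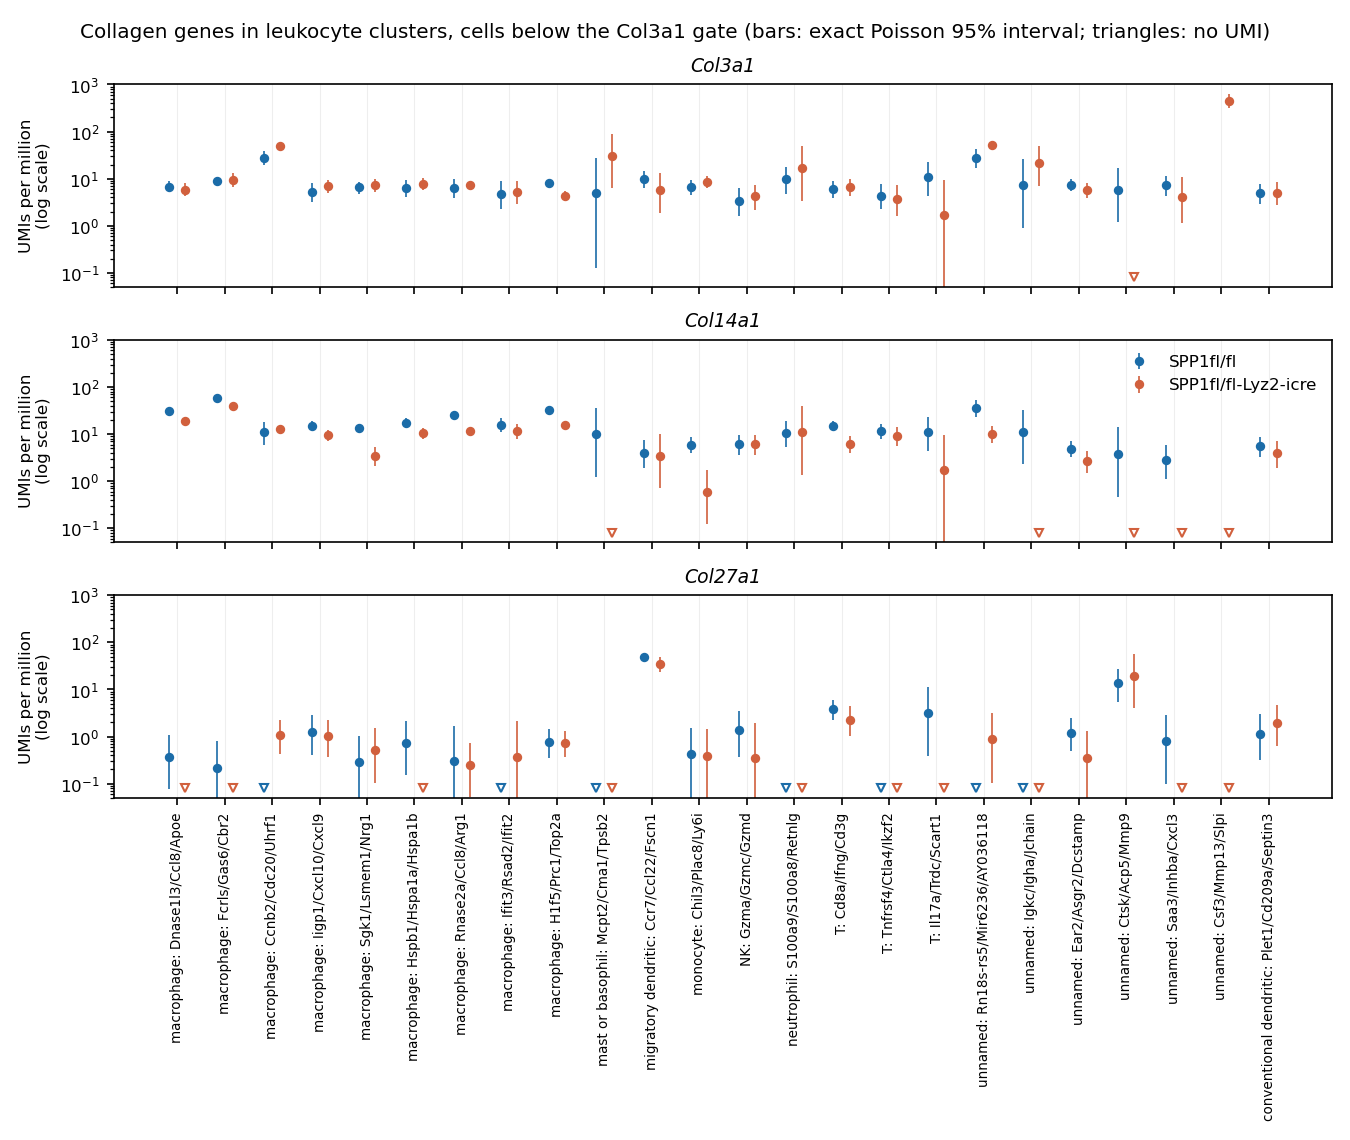
Col3a1, Col14a1 and Col27a1 in each leukocyte cluster (named by class and 3 leading genes) as CPM on a log axis, for both libraries, with exact Poisson 95% intervals; triangles mark no UMI. Col3a1 is similar in most clusters, Col14a1 is highest in macrophage clusters and Col27a1 in the migratory dendritic-like cluster.

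Between the genotypes Col14a1 differed in macrophage-like cells. Its ratio was 0.468 (0.431 to 0.508), and 1 of the 2 members at 10 or more in a library was lower, namely Col14a1. The other, Col3a1, stood at 7.73 and 10.7 (ratio 1.39) and was not past 1.5-fold. Of the 7916 genes tested there, 1.58% were lower and 0.72% higher. Col14a1 was lower in the Lyz2-icre library in 8 of 9 macrophage-like clusters, and in 7 the interval lay below 1. The exception was the Ccnb2 cluster, at 10.9 and 12.6 (14 and 81 UMIs). Within clusters the ratio ran from 0.249 (Sgk1) to 1.16 (Ccnb2), and was 0.656 in the Fcrls and 0.636 in the Dnase1l3 cluster. The Fcrls cluster, the richest in Col14a1, held 1061 of 4656 macrophage-like cells in the control and 558 of 8369 in the Lyz2-icre library. The part of this cluster makeup in the pooled ratio was not tested. In cells with Y-linked and no Xist UMIs the interval held 1. There Col14a1 stood at 14.7 and 13.5 (1128 and 1662 cells, ratio 0.920, 0.749 to 1.13), whereas in cells with Xist and no Y-linked UMIs it stood at 38.2 and 14.6 (2821 and 4746 cells, 0.382, 0.343 to 0.424). The difference between these was not tested, and with 1 library each the genotype cannot be told apart from the library or its animals.

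The macrophage total turned with Col14a1. The ratio of all collagen UMIs was 0.747 (0.707 to 0.790) with it and 1.13 without it. In other leukocytes the total had a ratio of 1.13 (1.03 to 1.23). The 1 member tested there, Col3a1, was higher at 6.95 and 11.3 (1.63, 1.36 to 1.94), where 0.594% of 8243 genes were higher and 2.38% lower. Both directions turned when the shallow unnamed cluster and the 25-cell cluster were left out, to 0.827 for the total and 0.953 for Col3a1.

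Col14a1 was also in excess of the collagen-high profile in T-like, natural killer-like and conventional dendritic-like cells, where its ratio to C1q was near that of macrophage-like cells. Per UMI of C1qa, C1qb and C1qc, a measure chosen after the levels were seen, it stood at 1.07 (0.870 to 1.31) and 0.980 (0.710 to 1.32) times the macrophage-like level in T-like cells. In natural killer-like cells it stood at 0.907 and 1.21 times and in conventional dendritic-like cells at 0.904 and 1.21. Monocyte-like cells stood lower, at 0.596 (0.395 to 0.865) and 0.127 (0.0262 to 0.373). Other leukocytes as a whole stood at 0.675 (0.589 to 0.771) and 0.632 (0.518 to 0.767). The part of macrophage RNA in these UMIs was not tested. In collagen-high cells the value was 1.02 in the control and 2.85 (1.78 to 4.35) in the Lyz2-icre library.

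Col27a1 had its highest level in dendritic cells. In the migratory dendritic-like cluster, led by Ccr7, Ccl22 and Fscn1, it had 120 and 31 UMIs, or 48.2 (39.999 to 57.7) and 35.2 (23.9 to 50.03) CPM. This exceeded its level in collagen-high cells (17.7 and 19.5), while Col3a1 in the same cluster was at 10.1 and 5.69. It had a UMI in 26.1% (20.8 to 31.8) and 15.1% (9.69 to 21.9) of these cells, against 0.430% and 0.358% of macrophage-like cells and 0.175% and 0.199% of monocyte-like cells. After thinning, the shares were 9.30% and 7.40% against 0.0926% and 0.0994% in macrophage-like cells, with median depths of 8570 and 5010 against 10206 and 7183. Per C1q UMI it stood at 374 (241 to 601) and 330 (193 to 561) times the macrophage level. Col27a1 was the sole member with enough UMIs in this class, and 100% of all genes were in excess there. A small unnamed cluster led by Ctsk, Acp5 and Mmp9 had 13.5 and 19.5 CPM (7 and 3 UMIs), and a T-like cluster led by Cd8a had 3.78 and 2.30.

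Col18a1, whose fragment is endostatin, was in excess in T-like cells. It had 20 and 11 UMIs there, and 19 and 8 of them lay in the cluster led by Tnfrsf4, Ctla4 and Ikzf2, genes of regulatory T cells, singled out after its values were seen. In that cluster it stood at 6.92 (4.17 to 10.8) and 3.69 (1.59 to 7.27) CPM, in 5.22% and 2.64% of cells, while 0.1503% and 0.119% of macrophage-like cells had a UMI. The level was not particular to that cluster: the small unnamed cluster led by Ctsk, Acp5 and Mmp9 stood at 7.70 and 13.0 CPM, on 4 and 2 UMIs. Per C1q UMI, T-like cells stood at 44.6 (18.1 to 125) and 21.9 (8.43 to 57.4) times the macrophage level, and against the collagen-high profile at 56.3 and 24.8. The gene is overlapped on the opposite strand by Slc19a1, and with the use of strand not given, reads of that gene cannot be told apart. Besides Col18a1, Col14a1 and Col15a1 were in excess in T-like cells, 3 of 4 with enough UMIs against 100% of all genes.

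Col15a1, the other multiplexin, had 180 and 158 UMIs in macrophage-like cells (3.53 and 2.43 CPM), 250-fold and 162-fold above the collagen-high profile. Its collagen-high UMIs came from 6 and 7 cells, so that profile rests on few cells. The mast or basophil-like cluster had the highest level, 25.2 (8.19 to 58.9) and 41.0 (11.2 to 105), from 5 and 4 UMIs in 39 and 17 cells. In T-like cells it was 1.65 and 1.51 times the macrophage level per C1q UMI, with intervals that held 1.

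Of the basement membrane chains, Col4a1 was in excess in macrophage-like cells (98 and 108 UMIs, 1.92 and 1.66 CPM, 13.7-fold and 11.1-fold). In monocyte-like cells it had 14 and 21 UMIs (2.94 and 4.14 CPM), 30.3-fold and 20.7-fold over the collagen-high profile and 4.65 (2.45 to 8.18) and 7.53 (4.48 to 12.1) times the macrophage level per C1q UMI. Its partner Col4a2 was just past the limit in macrophages, at 3.38 (1.79 to 6.04) and 3.09 (1.74 to 5.23), and was lost under a 5-fold limit and with the collagen gate at 0.5%. The chains of this pair were unequal, with 98 and 108 UMIs of Col4a1 against 16 and 19 of Col4a2 in macrophage-like cells, where collagen-high cells had 328 and 280 against 217 and 177. Col4a4 was in excess in other leukocytes with 10 and 15 UMIs, but with 0 and 1 UMIs in collagen-high cells its fold is a lower limit in the control and rests on 1 UMI in the Lyz2-icre library.

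The remaining members in excess had few UMIs. In macrophage-like cells these were Col11a2 (47 and 58 UMIs), Col9a3 (31 and 19), Col7a1 (28 and 37, 15.6-fold and 13.6-fold), Col27a1 (25 and 31) and Col20a1 (18 and 25). In other leukocytes 8 of 14 members were in excess, against 99.7% of all genes: Col4a4, Col9a3, Col27a1, Col15a1, Col18a1, Col4a1, Col14a1 and Col11a2. Those not in excess were Col3a1 (0.82 and 0.47), Col6a1 (1.21 and 0.94), Col6a2 (0.91 and 1.17), Col6a3, Col5a1 and Col5a3 (2.12 and 1.31). Col9a3 overlaps Tcfl5 on the opposite strand. In the unnamed clusters 2 of 4 members were (Col14a1 and Col15a1, against 99.8%). In all, 11 members were in excess in some class of both libraries. Below the minimum for that count, 9 of the 10 leukocyte UMIs of Col8a2 lay in natural killer-like cells (4 in the control, 5 in the Lyz2-icre library), a value picked out after it was seen. Col9a1, Col13a1, Col6a5 and Col6a6 had no UMI in any kept cell.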

How the data were processed

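The UMI counts per gene and cell were deposited by the authors as 1 filtered matrix per library, made with Cell Ranger 8.0.1 per the file headers; bcl2fastq 5.0.1, Cell Ranger and mm10 are named per the submitters' processing notes. The annotation release, the counting of introns and the use of strand are not given in the sources used here. Cells with under 300 genes, under 500 UMIs or over 15% mitochondrial UMIs were removed. Cells of both libraries were clustered (scanpy 1.11.5, Python 3.11.15, igraph 0.11.9; 2000 variable genes, 30 components, 15 neighbours, resolution 1) without collagen, Spp1, Lyz2, Xist, Y-linked, mitochondrial, ribosomal and receptor genes. Clusters were named from marker lists; those that fell short stay unnamed. No doublet caller was run: gated cells with C1q at 0.1% or more were left out as an alternative. UMIs were summed per library and class and scaled to CPM (1000000 UMIs), with exact Poisson intervals, exact binomial intervals for shares and exact conditional intervals for ratios (scipy 1.17.1, numpy 2.4.6, pandas 2.3.3), and the steps were tested on simulated data. Figures used matplotlib 3.10.9. A member was compared between genotypes at 10 CPM or more in a library. Named are members at that level, members past 1.5-fold, members in excess, and of each gene list those past 1.5-fold and the 2 highest and 2 lowest at 20 or more. The members and lists were chosen with earlier results of these data known. The C1q ratio, the Col1a1 limit and 3 kinds of alternative (gated cells of 1 cluster, clusters left out, Col14a1 left out) were chosen after seeing the data. Exon positions came from GENCODE vM21, to which 44 of 44 members were matched by gene identifier.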

Additional observations from a re-analysis of the deposited data

How the results depend on the processing

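No paired analysis was possible because there was 1 library per genotype; nor could a replicate be left out. Every ratio is Lyz2-icre over control. The collagen total of collagen-high cells (0.927) was 0.836 with a gate at 0.1%, 1.02 at 0.5%, 0.823 in female cells, 0.951 in male cells, 0.913 as a mean over cells, 0.948 with median-of-ratios scaling and 1.02 without C1q-bearing cells. The total of macrophage-like cells (0.747) was 0.703 with the 0.1% gate, 0.841 without a cell filter, 0.664 in female and 0.911 in male cells, 1.001 as a mean over cells, 0.823 with macrophages taken by C1q, 0.672 without leukocytes at 0.05% Col3a1 or more, 0.627 without the Ccnb2 cluster and 1.13 without Col14a1. The total of other leukocytes (1.13) was 1.0009 with the 0.1% and 1.52 with the 0.5% gate, 1.31 in male cells, 1.84 as a mean over cells, 1.32 without Col14a1, 0.864 without a cell filter, 0.935 with macrophages taken by C1q, 0.892 without leukocytes at 0.05% Col3a1 or more and 0.827 without the shallow and 25-cell clusters. The cause was not tested.

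The number of members past 1.5-fold in collagen-high cells (1) was 2 with the 0.5% gate, 3 in female and 8 in male cells, 2 as a mean over cells and 0 without C1q-bearing cells. The count for the mean over cells used the fold alone, without an interval. The share of all genes was not counted under these alternatives, so the counts say nothing particular of the members. Single members with a main interval clear of no change turned direction as follows (log2 ratio). With the 0.5% gate Col3a1 went to 0.0158 and Col6a1 to 0.0389. In female cells Col1a1 went to 0.12, and in male cells Col3a1 went to 0.22 and Col1a2 to -0.96. Without C1q-bearing cells Col3a1 went to 0.0469 and Col1a1 to 0.0302. Col5a1, Col5a2, Col6a2 and Col6a3, whose main intervals held no change, also rose above 0, up to 0.21, 0.53, 0.12 and 0.087. Col3a1 in other leukocytes (ratio 1.63) turned to 0.886 with macrophages taken by C1q, 0.937 without leukocytes at 0.05% Col3a1 or more and 0.953 without the shallow and 25-cell clusters. Of the alternatives for single members, 110 stayed within the main counting interval, 34 moved outside it and 10 turned. A turn was counted only where the main interval was clear of no change. Col14a1 in macrophage-like cells stayed below 1 in all its alternatives, from 0.382 to 0.920. The number of members at 10 CPM in collagen-high cells (17) ranged from 15 to 18, and that of members in excess (11) from 10 to 11.

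Depth limits the rare members: in collagen-high cells the floor of 3 UMIs set for a count of 0 is 1.10 and 1.15 CPM. Female and male cells are those with Xist or Y-linked UMIs alone. The gated cells differ in macrophage RNA between the libraries, and library, animals and genotype cannot be told apart.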

Other observations

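Col14a1 in T-like cells of the control library differed with the sex of the cells, as read from Xist and Y-linked UMIs. It stood at 15.9 CPM in female T-like cells (66 UMIs in 527 cells) and at 3.06 in male ones (3 UMIs in 143 cells). Macrophage-like cells of the same library stood at 38.2 and 14.7. In the Lyz2-icre library, T-like cells stood at 5.80 (20 UMIs) and 6.08 (5 UMIs), and macrophage-like cells at 14.6 and 13.5. The difference between the sexes was not tested. Female and male cells come from different animals, whose number is not given, so sex cannot be told apart from animal.

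Col3a1 in single collagen-high cells ran opposite to Mki67, with Spearman's rho of -0.40 in both libraries (162 and 217 cells with 5000 or more UMIs), as a description across cells that share a library.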
